A study of Mus musculus with 6 samples.

Results

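The genes described here act in the control of meiotic arrest in the mouse oocyte, through gap junctions and through making or breaking down cyclic nucleotides. They were chosen by name: a probe set, the group of short DNA probes that measures 1 transcript on the array, was a member if its only gene symbol on the platform was Nppc, Npr2, Impdh2, Gja1, Gja4, Pde3a, Pde4d, Pde5a, Pde10a or Gpr3. Of the 10 genes, 9 had such a probe set, with 23 probe sets among the 45101 on the array, and no level of Impdh2 was analysed here. After a limit on dim probe sets, 17 probe sets of 8 genes were tested, and Pde3a was not among them.

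Pools of cumulus-oocyte complexes, each the oocyte with the granulosa cells around it, were hybridised to Affymetrix mouse arrays, with 2 arrays in each of 3 groups. All animals were wild-type immature females given equine chorionic gonadotropin (eCG), which grows follicles, for 48 h, and no further hormone was named for the first group (no hCG). The other groups also received human chorionic gonadotropin (hCG), the luteinizing hormone substitute that triggers ovulation, for 8 h and for 16 h. Complexes without hCG were taken from ovaries by needle and are called expanded in the labels, whereas those at 8 h and 16 h are described as oviductal. By these labels, which were not checked, hormone and place of collection cannot be told apart. The strain, the number of animals per pool and whether the arrays of a group came from separate animals are not given in the sources used here, so the p-values measure the spread between these samples, which may be technical.

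In a preovulatory follicle, C-type natriuretic peptide from granulosa cells activates its receptor on cumulus cells, which makes cGMP. The cGMP passes through gap junctions into the oocyte and inhibits the phosphodiesterase that would otherwise break down cAMP, while an oocyte receptor keeps cAMP being made, and high cAMP holds the oocyte in prophase. Luteinizing hormone lowers cGMP and closes the gap junctions, after which meiosis resumes.

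Values are log2 intensities per probe set, on which 1 unit is a doubling, and a gene is represented by its brightest probe set unless an ID is given. A change is the difference of 2 group means ± SE from a limma fit over all 6 arrays, and it was called at an adjusted p (Benjamini-Hochberg) under 0.05 over 27022 probe sets. Array medians lay within 0.124 of each other, and the arrays of a group correlated at r = 0.991 to 0.996, against 0.943 to 0.978 between groups, across probe sets that are not independent. Levels of different genes cannot be compared on this scale. The markers of the labelled cells were present: the 20 oocyte markers tested had a mean log2 level per array of 11.26 to 11.44 without hCG, 9.09 to 9.21 at 8 h and 8.93 to 9.21 at 16 h, and the 14 granulosa and cumulus markers of 11.58 to 11.77, 9.97 to 10.16 and 9.58 to 9.76. In such bulk samples fewer cells of a type and less RNA per cell cannot be told apart.

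At 8 h of hCG the ligand gene Nppc, its receptor gene Npr2, the oocyte connexin gene Gja4 and the oocyte receptor gene Gpr3 fell, and the phosphodiesterase genes Pde4d and Pde5a rose. Of the 8 genes tested, 4 fell, where 20.5% of all 13559 tested genes did, and 2 rose, where 16.9% did. Gja1 and Pde10a did not pass the test on their brightest probe sets. The median change was −0.63 over the 8 genes and −0.02 over all genes tested. Between 8 h and 16 h, 1 of the 8 rose further (11.8% of all genes rose), namely Pde5a, and 3 fell (9.12% of all genes fell), namely Nppc, Gja4 and Pde4d. Against no hCG, the 6 genes called at 8 h were called in the same direction at 16 h: 4 fell (background 20.8%) and 2 rose (background 20.8%). The comparisons share arrays and are not independent of each other. The genes were chosen with earlier results of these data known, so their counts and medians beside the background are a description.

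**Figure D1:**
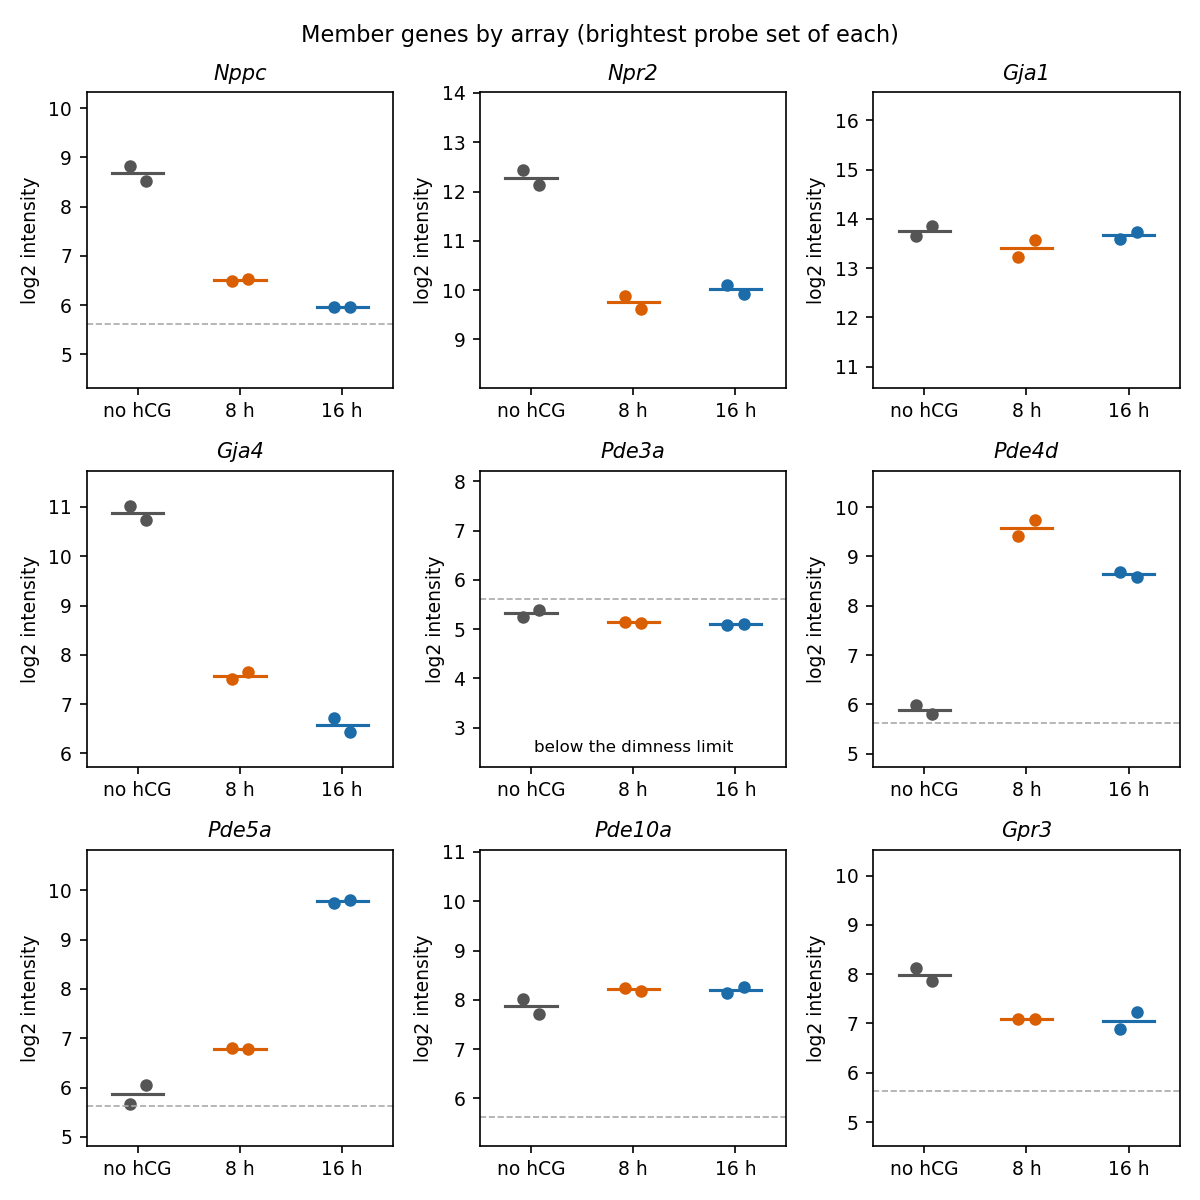
Log2 intensity of the brightest probe set of 9 genes on each array (points) by time after hCG, with group means as bars, 2 arrays per group, and a dashed line at the dim limit of 5.62. Nppc, Npr2, Gja4 and Gpr3 lie lower on both 8 h and both 16 h arrays than on the arrays without hCG, Pde4d and Pde5a lie higher, and Pde3a lies under the limit throughout.

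**Figure D2:**
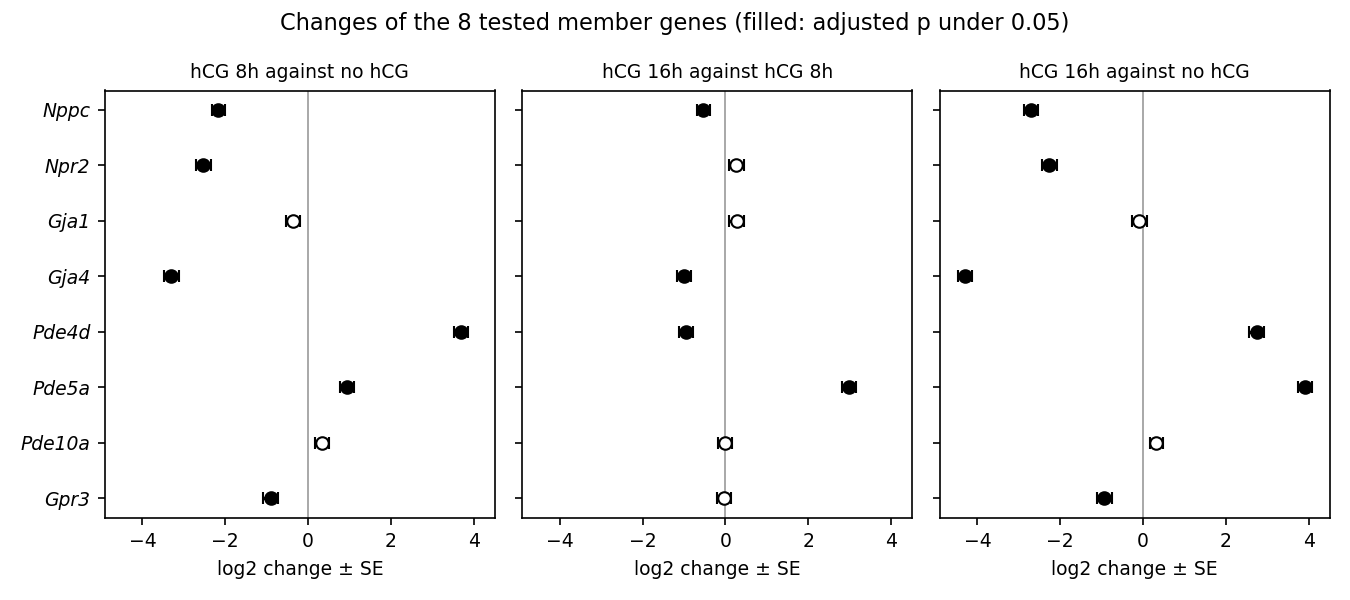
Log2 change ± SE of the 8 tested genes in each of 3 comparisons, filled where the adjusted p is under 0.05. Gja4 has the lowest change at 8 h against no hCG (−3.30) and Pde4d the highest (3.69), whereas at 16 h against 8 h the highest is that of Pde5a (2.99).

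For the 6 genes called against no hCG, the 250 bases before the transcription start are shown, so that genes that fell can be set beside genes that rose. They are RefSeq sequences of build GRCm38.p6, read 5′ to 3′ along the gene, from the start site that the sequence table lists. Capitals mark the letters TGACG, the core of the cAMP response element, or CGTCA, the same letters on the other strand.
Nppc, chr1:86670574-86670823, minus strand: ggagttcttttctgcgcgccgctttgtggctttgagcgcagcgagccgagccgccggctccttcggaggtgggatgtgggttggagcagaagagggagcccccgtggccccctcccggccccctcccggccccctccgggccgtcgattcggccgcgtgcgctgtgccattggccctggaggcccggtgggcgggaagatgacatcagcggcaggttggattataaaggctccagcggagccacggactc
Npr2, chr4:43631685-43631934, plus strand: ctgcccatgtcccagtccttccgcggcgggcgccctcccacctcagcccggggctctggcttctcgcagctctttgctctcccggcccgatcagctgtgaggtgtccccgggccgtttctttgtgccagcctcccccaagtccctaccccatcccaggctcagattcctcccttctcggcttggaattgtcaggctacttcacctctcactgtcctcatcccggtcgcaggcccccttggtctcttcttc
Gja4, chr4:127314040-127314289, minus strand: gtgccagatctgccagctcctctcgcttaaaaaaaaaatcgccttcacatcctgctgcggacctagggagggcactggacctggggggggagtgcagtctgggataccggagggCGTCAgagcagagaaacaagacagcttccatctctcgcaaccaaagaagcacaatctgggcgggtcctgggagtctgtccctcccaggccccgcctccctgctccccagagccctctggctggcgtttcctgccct
Gpr3, chr4:133212537-133212786, minus strand: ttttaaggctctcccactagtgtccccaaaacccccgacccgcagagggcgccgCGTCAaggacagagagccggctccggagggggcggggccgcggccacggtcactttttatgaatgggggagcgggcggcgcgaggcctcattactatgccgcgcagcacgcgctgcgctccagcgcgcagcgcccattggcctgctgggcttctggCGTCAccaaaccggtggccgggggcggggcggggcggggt
Pde4d, chr13:108653927-108654176, plus strand: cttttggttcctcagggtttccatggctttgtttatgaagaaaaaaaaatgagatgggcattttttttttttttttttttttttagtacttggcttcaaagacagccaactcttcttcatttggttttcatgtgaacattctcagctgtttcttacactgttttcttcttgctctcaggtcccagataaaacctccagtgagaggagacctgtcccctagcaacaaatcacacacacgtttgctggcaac
Pde5a, chr3:122728908-122729157, plus strand: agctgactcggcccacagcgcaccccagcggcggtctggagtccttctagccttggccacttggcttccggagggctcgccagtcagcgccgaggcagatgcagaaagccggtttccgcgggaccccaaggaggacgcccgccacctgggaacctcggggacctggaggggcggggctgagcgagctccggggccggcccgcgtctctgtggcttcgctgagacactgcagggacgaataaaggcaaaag
In Gja4 the match lies at positions −136 to −132 from the start, and in Gpr3 at −196 to −192 and −40 to −36, all on the strand opposite to the gene. The other 4 windows shown hold none. Only 1 start site was listed for each gene shown, and the Npr2 window lies inside the span of its gene (chr4:43629015-43651437). With the rest of the genes, 4 of 9 with a listed promoter held TGACG in this window, the others being Gja1 and Impdh2. All promoters were counted over the 250 bases before and the 50 bases after the start, and each match in these genes lay before it. Of 32851 mouse promoters searched in that way, 20.8% held TGACG. The full palindrome TGACGTCA, which contains TGACG on both strands, was in 1.79% of all promoters and in 0 of the 10 listed for these genes. These matches are letters only, no binding was measured, and the absence of the letters says nothing about a factor.

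Nppc, at chr1:86666293-86670573, encodes C-type natriuretic peptide, the ligand made by granulosa cells. Its log2 level was 8.83 and 8.52 without hCG, 6.48 and 6.53 at 8 h, and 5.97 and 5.96 at 16 h. Both arrays without hCG were above all 4 later arrays, and both 16 h arrays were below both 8 h arrays, close to the dim limit of 5.62. Nppc fell by 2.17 ± 0.16 at 8 h (adjusted p = 8.84e-06), the 257th lowest change of 13559 genes. The further difference of −0.54 ± 0.16 at 16 h against 8 h passed narrowly (adjusted p = 0.0474). That call was lost when any 1 of the 8 h or 16 h arrays was left out (adjusted p = 0.168 to 0.224) and under 5 other settings, such as quantile normalization (0.0716), with a range of 0.0205 to 0.224 over the arrays left out in turn.

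Npr2, at chr4:43629015-43651437, encodes the receptor that makes cGMP when it binds this peptide. Its log2 level was 12.43 and 12.14 without hCG, 9.89 and 9.62 at 8 h, and 10.11 and 9.93 at 16 h. All 4 arrays after hCG lay at least 2 units below those without. Npr2 fell by 2.53 ± 0.18 at 8 h (adjusted p = 5.75e-06) and differed by −2.26 ± 0.18 at 16 h against no hCG (adjusted p = 8.34e-06). Unlike Nppc, its mean was not lower at 16 h than at 8 h (0.27 ± 0.18, adjusted p = 0.38, 95% interval −0.13 to 0.66). The markers of granulosa and cumulus cells moved the same way: 11 of 14 fell at 8 h, with a median of −1.67, and their summed linear intensity per array was 43480 to 52120 at 8 h against 99800 to 104900 without hCG. Of the 14 markers, 13 fell at 16 h against no hCG (median −2.06), with sums of 29820 to 34050 at 16 h. The oocyte markers fell as well, 20 of 20 at 8 h (median −2.22) and 20 of 20 at 16 h against no hCG (median −1.41). Of all genes, 20.5% and 20.8% fell in these comparisons. The part of either marker set in the changes of Nppc and Npr2 was not tested.

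Other genes that supply cGMP had changes of −0.79 to 0.04 at 8 h, smaller than those of Nppc and Npr2. Of 15 listed symbols, 11 had a probe set and 7 were tested. At 8 h 3 of the 7 fell (median −0.45), and at 16 h against 8 h 2 fell (median −0.20). At 16 h against no hCG 5 fell (median −0.63). In these comparisons 20.5%, 9.12% and 20.8% of all genes fell. Theca and stroma markers fell too, 5 of 8 at 8 h, 4 of 8 at 16 h against 8 h and 7 of 8 at 16 h against no hCG, with sums of 3370 to 3719 without hCG, 1658 to 2284 at 8 h and 991.6 to 1109 at 16 h, and their part was not tested. Gucy1a1, a subunit of the soluble guanylyl cyclase that nitric oxide activates, was 8.03 and 8.45 without hCG, 7.54 and 7.75 at 8 h, and 5.82 and 5.61 at 16 h. Its groups did not overlap, and most of its fall came between 8 h and 16 h (−1.93 ± 0.19, adjusted p = 0.000121, against −0.60 ± 0.19 at 8 h against no hCG). The partner subunit gene Gucy1b1 was lower at 16 h than without hCG (−0.93 ± 0.33, adjusted p = 0.0489). Impdh1, an enzyme of guanine nucleotide synthesis related to Impdh2, fell by 0.67 ± 0.17 at 8 h, with values of 9.47 and 9.72 at 8 h against 10.39 and 10.13 without hCG. Guk1, which phosphorylates GMP, fell by 0.79 ± 0.16 at 8 h, and Gmps, which makes GMP, fell by 0.62 ± 0.15 at 16 h against 8 h.

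Gja4, at chr4:127311420-127314039, encodes the connexin of the junctions between oocyte and cumulus cells. Its log2 level was 11.02 and 10.74 without hCG, 7.50 and 7.66 at 8 h, and 6.72 and 6.44 at 16 h, with no overlap between any groups. Gja4 was 9.86-fold lower at 8 h than without hCG (−3.30 ± 0.18, adjusted p = 1.36e-06), the 22nd lowest change of all genes tested. It fell by a further 1.00 ± 0.18 at 16 h (adjusted p = 0.00355), and was then 19.7-fold lower than without hCG. Of the 8 members tested, Gja4 thus had the lowest change against no hCG at both times.

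Gja1, at chr10:56377300-56390419, encodes the main connexin between cumulus cells. Its 6 probe sets were all lower on both 8 h arrays than on those without hCG, but differed in the size of the change and in the call. The brightest, 1437992_x_at, read 13.66 and 13.85 without hCG, 13.22 and 13.57 at 8 h, and 13.59 and 13.74 at 16 h. Its 8 h arrays were lower than those without hCG, but the change of −0.36 ± 0.17 did not pass (adjusted p = 0.152, 95% interval −0.75 to 0.03), and the 16 h arrays overlapped those without hCG. Probe set 1415801_at read 10.95 and 11.09 without hCG, 9.09 and 9.14 at 8 h, and 9.34 and 9.30 at 16 h. It fell by 1.91 ± 0.15 at 8 h (adjusted p = 1.15e-05) and was still lower at 16 h than without hCG (−1.70 ± 0.15, adjusted p = 1.83e-05). Another 3 probe sets fell by 0.55 to 0.60 at 8 h (adjusted p = 0.0402 to 0.0482), and the dimmest, with a mean of 6.60, did not pass (−0.37, adjusted p = 0.116). Of the 6, only 1415801_at passed at 16 h against no hCG. The mean of all 6 probe sets gave −0.73 at 8 h (adjusted p = 0.00467) and −0.43 at 16 h (adjusted p = 0.0463) against no hCG. Where on the transcript each probe set lies is not given in the sources used here.

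Of 18 other genes listed, connexins and the scaffold gene Tjp1, 6 were tested. By limma 0 rose and 0 fell at 8 h (median −0.33), with 0 higher and 1 lower at an unadjusted p under 0.05. Of all genes, 16.9% rose and 20.5% fell at 8 h, 9.12% fell at 16 h against 8 h and 20.8% at 16 h against no hCG. With 6 genes tested, no excess or lack is read from these counts. At 16 h, 1 gene fell against 8 h and against no hCG, the connexin gene Gjc1. It read 7.93 and 8.61 without hCG, 7.85 and 7.88 at 8 h, and 6.99 and 6.97 at 16 h, a change of −0.88 ± 0.21 after 8 h (adjusted p = 0.0186).

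**Figure D3:**
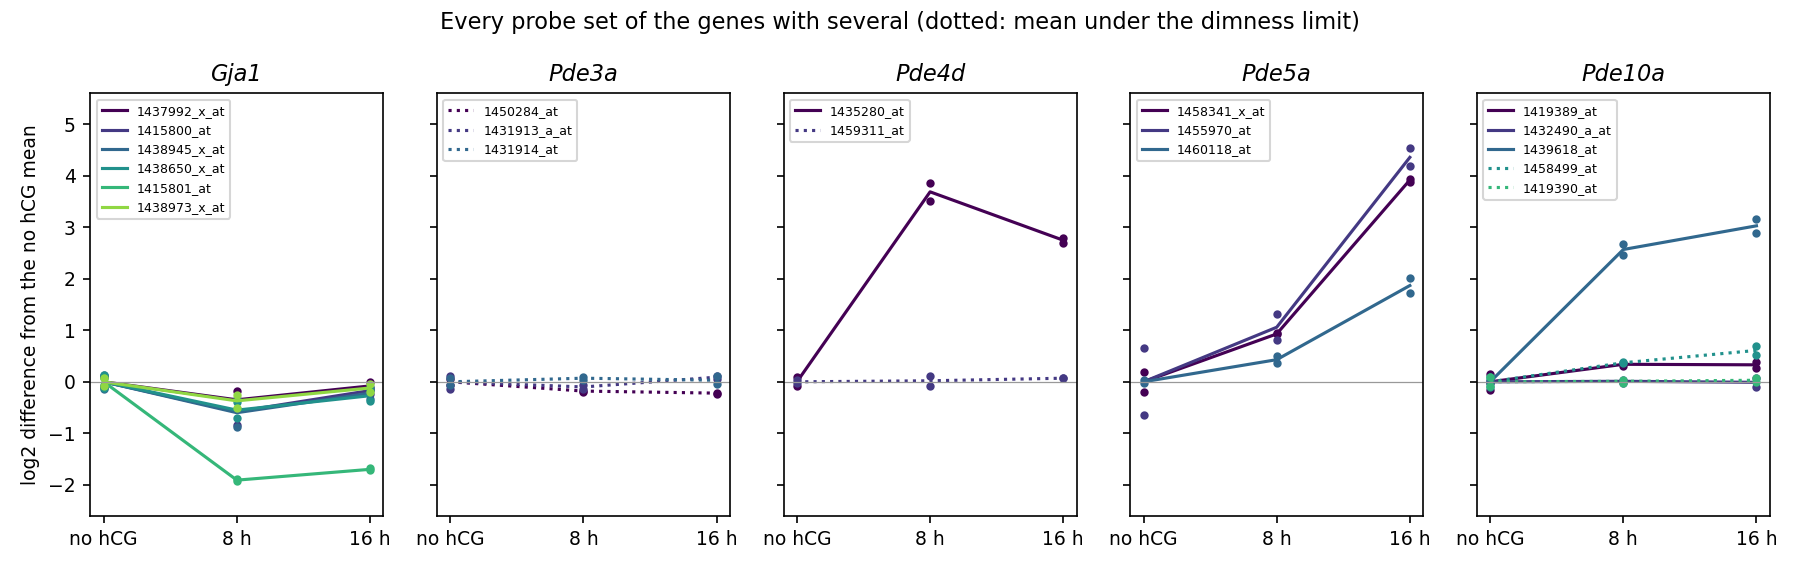
Difference of each probe set from its own mean without hCG (log2, lines through group means, points for 6 arrays) for the 5 genes with several probe sets, dotted where the mean is under the dim limit. The 3 Pde5a probe sets run upward, while 1 Gja1 probe set (1415801_at) and 1 Pde10a probe set (1439618_at) stand apart from the others of their gene.

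Pde4d, at chr13:108654177-109955969, encodes a phosphodiesterase that breaks down cAMP. Its log2 level was 5.98 and 5.80 without hCG, 9.41 and 9.75 at 8 h, and 8.68 and 8.59 at 16 h. The arrays without hCG were near the dim limit, and the 8 h arrays were the highest. Pde4d was 12.9-fold higher at 8 h than without hCG (3.69 ± 0.17, adjusted p = 7.42e-07), the 67th highest change of 13559. It fell by 0.94 ± 0.17 at 16 h against 8 h (adjusted p = 0.0043), a call lost without replicate 2 of the 8 h group (−0.77, adjusted p = 0.0552). At 16 h it was still 2.75 ± 0.17 higher than without hCG (adjusted p = 2.08e-06). Its other probe set, 1459311_at, had a mean of 3.98 and varied by 0.21 over the 6 arrays, under the dim limit. The mean of both probe sets gave 1.85 at 8 h and 1.41 at 16 h against no hCG (adjusted p = 1.21e-05 and 4.61e-05), and −0.44 at 16 h against 8 h (adjusted p = 0.0411).

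Pde5a, at chr3:122729158-122859374, encodes a phosphodiesterase that breaks down cGMP. Its brightest probe set, 1458341_x_at, read 5.67 and 6.05 without hCG, 6.80 and 6.78 at 8 h, and 9.75 and 9.80 at 16 h. The groups did not overlap, and the larger step came after 8 h. Pde5a rose by 0.93 ± 0.17 at 8 h (adjusted p = 0.00219) and by 2.99 ± 0.17 from there at 16 h (adjusted p = 8.4e-06), the 30th highest change in that comparison. It was 15.1-fold higher at 16 h than without hCG.

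The other 2 Pde5a probe sets passed the dim limit only through the later times, so they had to differ and their values are a description. Probe set 1455970_at read 3.97 and 5.26 without hCG, 5.42 and 5.92 at 8 h, and 8.80 and 9.15 at 16 h. Probe set 1460118_at averaged 4.97 ± 0.04 without hCG, 5.40 ± 0.10 at 8 h and 6.84 ± 0.20 at 16 h (SD, n = 2). Both were highest on the 16 h arrays. On their brightest probe sets, Pde4d had its larger measured step before 8 h and Pde5a after it.

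Leukocyte markers rose in the same interval as Pde5a. At 16 h against 8 h, 12 of 15 rose (median 1.99), where 11.8% of all genes rose. The summed linear intensities of the markers were 9951 to 10020 at 16 h against 3820 to 3996 at 8 h. Ptprc, the common leukocyte antigen, read 7.64 and 7.98 at 16 h against 4.90 and 5.55 at 8 h. Of the 5 oviduct epithelium markers tested, 3 rose in that interval (sums of 4011 to 5063 at 16 h against 1041 to 1130 at 8 h), and of the 4 ovarian surface epithelium markers, which share genes with them, 3 rose and 1 fell. At 8 h against no hCG, where Pde4d rose, 2 of 15 leukocyte markers rose (median −0.10), beside 16.9% of all genes. In that comparison, where 20.5% of all genes fell, 0 of the 5 oviduct epithelium markers rose and 2 fell. Their sums were 1041 to 1130 at 8 h against 1784 to 2017 without hCG. Of 7 endothelium markers 2 were tested, and 1 rose, the endothelial cadherin gene Cdh5 (2.86 ± 0.25, adjusted p = 2.16e-05), with sums of 446.8 to 527.7 at 8 h against 166.4 to 192.7 without hCG. Their part in the levels of Pde5a and Pde4d was not tested.

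Pde10a, at chr17:8525187-8986648, encodes a phosphodiesterase for both cAMP and cGMP. Its brightest probe set, 1419389_at, read 8.02 and 7.72 without hCG, 8.24 and 8.17 at 8 h, and 8.14 and 8.26 at 16 h. The later arrays were slightly higher, but the change at 8 h did not pass (0.34 ± 0.16, adjusted p = 0.149, 95% interval −0.03 to 0.71). Probe set 1439618_at read 3.88 and 3.93 without hCG, 6.36 and 6.57 at 8 h, and 6.80 and 7.06 at 16 h. It passed the dim limit only through the later times, so its difference of 2.56 ± 0.16 at 8 h is a description. The remaining tested probe set, 1432490_a_at, varied by only 0.19 over the 6 arrays. The other 2 had means under the limit. Of these, 1458499_at read 5.28 and 5.08 without hCG, 5.56 and 5.54 at 8 h, and 5.70 and 5.88 at 16 h. Probe set 1419390_at varied by 0.19. The gene as a whole gave no single answer.

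Pde3a, at chr6:141249269-141506862, encodes the oocyte phosphodiesterase that cGMP inhibits. Its brightest probe set read 5.25 and 5.38 without hCG, 5.15 and 5.13 at 8 h, and 5.08 and 5.11 at 16 h. All values were under the dim limit, as were the means of the other 2 probe sets, 4.84 and 4.23. No change of Pde3a was therefore tested, and the signal over background is unknown because no detection calls were used.

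Among the 20 other listed phosphodiesterases, 16 were tested. At 8 h, 3 rose and 5 fell (median −0.08), at 16 h against 8 h 1 rose and 3 fell (median −0.04), and at 16 h against no hCG 3 rose and 6 fell (median −0.03). The shares of all genes that rose in these comparisons were 16.9%, 11.8% and 20.8%, and those that fell 20.5%, 9.12% and 20.8%. Counts of rises were thus near or below the background and counts of falls above it, on 16 genes and without a list test. Pde1a, activated by calcium and calmodulin, read 5.92 and 6.68 without hCG, 8.98 and 9.13 at 8 h, and 7.17 and 7.54 at 16 h. Its highest arrays were those at 8 h, as for Pde4d, with a change of 2.75 ± 0.25 at 8 h and one of −1.70 ± 0.25 after it. Pde4b, which like Pde4d breaks down cAMP, rose by 2.53 ± 0.23 at 8 h and its difference at 16 h against 8 h did not pass (−0.44, adjusted p = 0.247). Pde7b, also specific for cAMP, ran the other way. It read 9.27 and 9.84 without hCG, 7.81 and 8.02 at 8 h, and 6.20 and 6.46 at 16 h, with falls at both steps (−1.64 ± 0.21 and −1.59 ± 0.21). Pde9a, specific for cGMP, fell by 0.73 ± 0.16 at 8 h and by 0.57 ± 0.16 at 16 h against 8 h. Pde6b, known from photoreceptors, fell by 1.58 ± 0.18 at 8 h and was lower at 16 h than without hCG (−1.72 ± 0.18). Its difference at 16 h against 8 h did not pass (−0.14, adjusted p = 0.708).

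Gpr3, at chr4:133209340-133212536, encodes the oocyte receptor that keeps cAMP high. Its log2 level was 8.12 and 7.86 without hCG, 7.09 and 7.09 at 8 h, and 6.88 and 7.23 at 16 h. All later arrays were below those without hCG, and the 16 h arrays lay on either side of the 8 h arrays. Gpr3 fell by 0.90 ± 0.18 at 8 h (adjusted p = 0.00333). The difference at 16 h against 8 h did not pass (−0.04 ± 0.18, adjusted p = 0.934, 95% interval −0.43 to 0.36).

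Gja4 and Gpr3 are known from the oocyte, and the oocyte markers fell with them. At 8 h against no hCG all 20 tested markers fell, with a median of −2.22 and a range of −3.01 to −0.94. Their summed linear intensity was 17240 to 18400 at 8 h against 76380 to 89010 without hCG. Gja4 (−3.30) fell by more than each of the 20, and Gpr3 (−0.90) by less than each, although its distance from the nearest marker was smaller than its SE of 0.18.

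At 16 h both genes lay inside the marker range. Against no hCG all 20 markers were lower, with a median of −1.41 and a range of −4.88 to −0.75. Of the 20, Zp2 (−4.88), Zp3 (−4.50) and Padi6 (−4.41) fell more than Gja4 (−4.30), and Oosp1, Dazl, Bmp15 and Gdf9 (−0.79 to −0.75) fell less than Gpr3 (−0.94). These 7 markers were named because their changes lay beyond those of Gja4 and Gpr3. The markers did not move as 1 block after 8 h, when 7 of the 20 rose and 7 fell at 16 h against 8 h (median −0.27). The egg coat gene Zp3 read 8.19 and 7.35 at 16 h against 9.77 and 9.56 at 8 h, whereas the growth factor gene Gdf9 read 12.56 and 12.41 at 16 h against 11.31 and 11.34 at 8 h. The part of the oocyte RNA in the changes of Gja4 and Gpr3 was not tested.

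**Figure D4:**
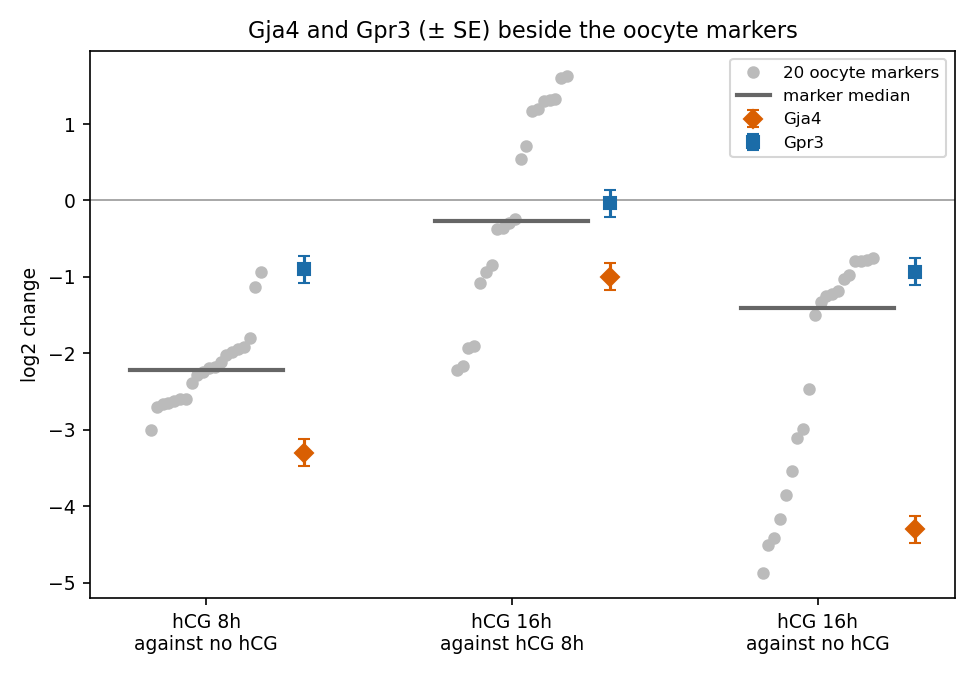
Log2 change of 20 oocyte markers (grey points, median as a line) beside those of Gja4 and Gpr3 (± SE) in 3 comparisons. At 8 h against no hCG, Gja4 (−3.30) lies below every marker and Gpr3 (−0.90) above the highest (−0.94). The markers spread in both directions at 16 h against 8 h, from −2.22 to 1.63.

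The genes that make cAMP or carry the signal of both cyclic nucleotides onward included the largest change of any pathway gene listed. Of 20 listed, 16 were tested: 7 rose and 2 fell at 8 h (median 0.40), 2 fell at 16 h against 8 h (median −0.17), and 6 rose and 3 fell at 16 h against no hCG (median 0.12). Of all genes, 16.9%, 11.8% and 20.8% rose and 20.5%, 9.12% and 20.8% fell in these comparisons. Prkg2, a protein kinase activated by cGMP, read 6.36 and 6.28 without hCG, 12.18 and 12.34 at 8 h, and 10.75 and 10.55 at 16 h. It rose by 5.94 ± 0.16 at 8 h (adjusted p = 5.65e-08) and fell by 1.61 ± 0.16 after it, the order seen for Pde4d. Prkar1b, a regulatory subunit of the cAMP-dependent kinase, rose by 2.80 ± 0.24 at 8 h and was 2.62 ± 0.24 higher at 16 h than without hCG. Another such subunit gene, Prkar1a, rose by 1.04 ± 0.16 at 8 h, whereas Prkar2b fell by 0.95 ± 0.20 at 16 h against 8 h.

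Of 19 listed genes that carry out or restrain meiotic resumption downstream of cAMP, 17 were tested. At 8 h 1 rose and 11 fell (median −0.59), at 16 h against 8 h 2 rose and 6 fell (median −0.40), and at 16 h against no hCG 1 rose and 15 fell (median −1.16), against the same shares of all genes. Mos, the oocyte kinase that keeps the egg in metaphase, read 11.07 and 10.95 without hCG, 8.48 and 8.25 at 8 h, and 9.64 and 9.44 at 16 h. It fell by 2.64 ± 0.16 at 8 h and rose by 1.17 ± 0.16 after it. Wee2, the oocyte kinase that inhibits the cell cycle kinase Cdk1, fell by 2.62 ± 0.15 at 8 h, and the checkpoint gene Bub1b by 1.63 ± 0.15. Cdk1 itself fell by 0.52 ± 0.17 at 8 h and by 0.85 ± 0.17 at 16 h against 8 h. Wee1, which inhibits it in other cells, fell at 16 h against 8 h (−1.07 ± 0.16). Compared with no hCG, the cyclin gene Ccnb2 was lower at 8 h (−1.32 ± 0.18) and at 16 h (−1.61 ± 0.18). The spindle kinase gene Aurka was also lower at 8 h (−0.80 ± 0.16) and at 16 h (−1.55 ± 0.16). Mos and Wee2 thus fell by amounts within the range of the oocyte markers at 8 h (−3.01 to −0.94). Granulosa and cumulus markers fell too, 11 of 14 at 8 h and 13 of 14 at 16 h against no hCG. The part of either marker change in the falls of this list was not tested.

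**Figure D5:**
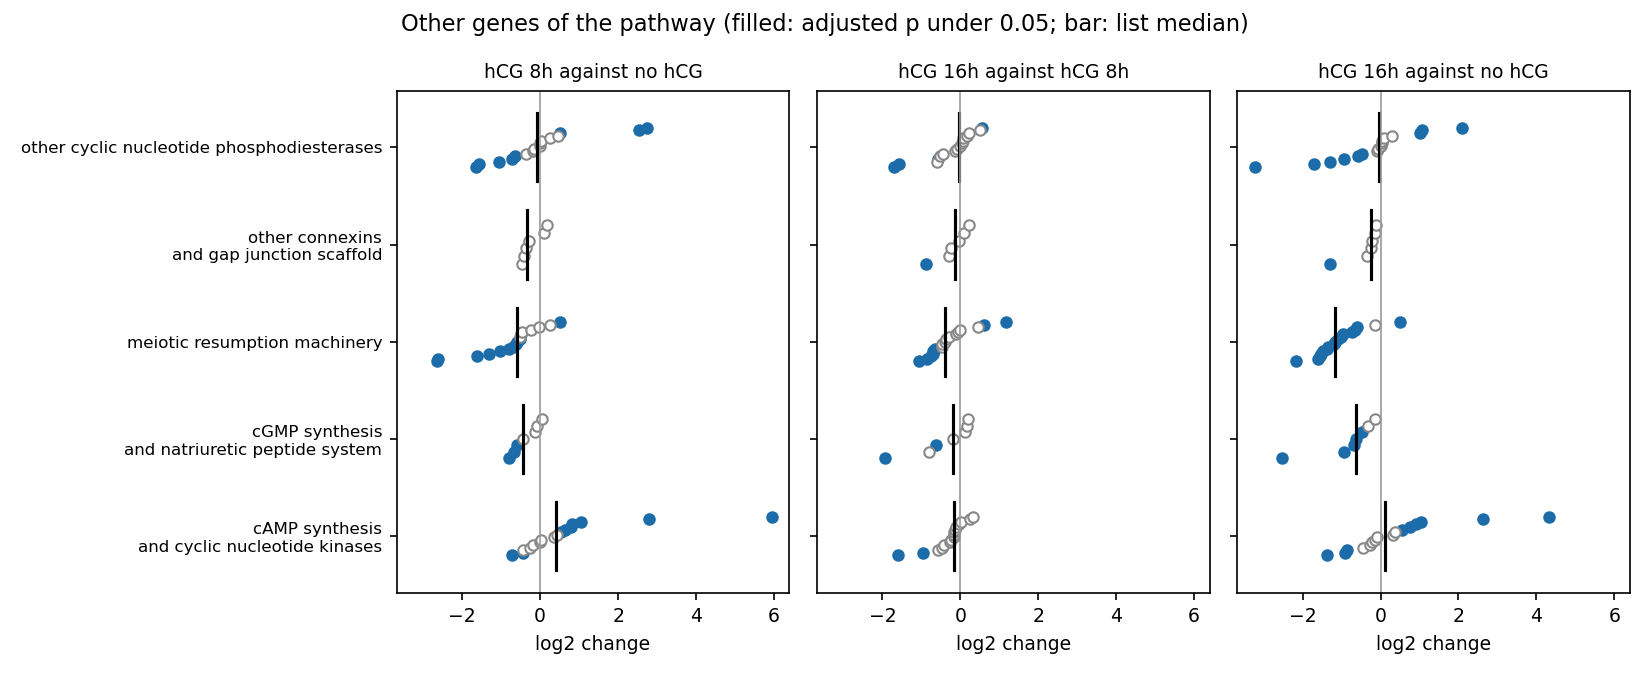
Log2 change of the tested genes of 5 pathway lists in 3 comparisons, 1 point per gene, filled where the adjusted p is under 0.05, with the list median as a bar. The point farthest right at 8 h against no hCG is Prkg2 (5.94), and most points of the meiotic resumption list lie left of 0 in the comparisons with no hCG.

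For the 6 members called in any comparison, the 3 tested genes with the most similar course were found among 13558, as the smallest root-mean-square difference over the 6 arrays after centring each gene. Nppc was nearest to Tuba4a (0.072), Pdzk1 (0.106) and Dbndd1 (0.11), Npr2 to Kpna7 (0.121), Nlrp4e (0.132) and Fbxw24 (0.135), and Gja4 to Cpsf4l (0.195), Tex14 (0.197) and Zp1 (0.2), the last an oocyte marker of the list above. Pde4d was nearest to Adh7 (0.212), F3 (0.216) and Parm1 (0.225). Pde5a was nearest to Slc36a2 (0.13), Megf10 (0.22) and Cd52 (0.224), the last on the leukocyte marker list. Gpr3 was nearest to Snai3 (0.06), Elf3 (0.069) and Rogdi (0.084). No 2 members shared a near gene, and the measure is a description on 6 arrays without a test.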

How the data were processed

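Each of 6 pools of cumulus-oocyte complexes was measured as biotin-labelled cRNA on 1 array, and groups and replicate numbers came from the sample titles. The table the authors deposited held log2 intensities between 3.32 and 15.53. That scale was read from the values, and which software, background correction and normalization made them is not given in the sources used here. Array medians differed by less than 0.2, so values were used as deposited. Gene names came from the platform annotation: 34945 probe sets had 1 symbol, 932 had several and 9160 had none, and 64 controls were left out.

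Probe sets whose mean over the 6 arrays was under the 40th percentile (5.62) were called dim and not tested, which left 27022 probe sets and 13559 genes. A member measured well in only 1 group can pass this filter through that group. The 3 group means were estimated in 1 linear model of the 6 arrays (limma 3.58.1 under R 4.3.3, with moderated variances on 3 residual and 6.43 prior degrees of freedom), two-sided, with Benjamini-Hochberg adjustment over the 27022 probe sets of each comparison. All adjusted p-values are from limma. A gene was read from its brightest probe set with 1 symbol. With 2 arrays per group, precision is limited by their number. The fit was tested on simulated data.

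The members and the gene lists were chosen with earlier results of these data known. Named genes were all members, up to 3 called genes with the largest change per pathway list and comparison, the 3 genes nearest to each called member, and Zp3, Gdf9 and Ptprc as marker examples. Cdh5 and the oocyte markers whose changes lay beyond those of Gja4 and Gpr3 were named after their values were seen. Alternatives were quantile normalization, median centring, no dim limit or one at the 60th percentile, fits on 2 groups only, an intensity trend, a replicate block, each array left out, the mean of a gene's probe sets, leaving out probe sets with the suffixes _s_at, _x_at and _a_at (which mark probes that can match more than 1 sequence), and scaling to the oocyte markers.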

Additional observations from a re-analysis of the deposited data

How the results depend on the processing

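The members' calls against no hCG kept their direction and side of the threshold under the alternatives run for all members, except for Gja1 and Pde10a. For Gja1 at 8 h, −0.36 became −0.44 under quantile normalization (adjusted p = 0.0433), −0.73 as the mean of its probe sets (0.00467) and −0.58 without probe sets of shared probes (0.0426), and at 16 h the mean gave −0.43 (0.0463). For Pde10a, the mean of its 5 probe sets, 2 of them dim, gave 0.66 at 8 h and 0.80 at 16 h. Its largest part is 1439618_at (2.56 at 8 h), which passed the dim limit only through the later times, so these values support no call. Oocyte marker scaling, run for Gja4, Gpr3 and Pde3a only, subtracts each array's median marker level and so adds 2.51 to every gene at 8 h and 3.13 at 16 h against no hCG, and 0.62 at 16 h against 8 h. The median changes of the markers were −2.22, −1.41 and −0.27. The added constant took Gpr3 to 1.61, 2.20 and 0.58, and no direction is drawn from these values. On that scale the changes of Gja4 against no hCG shrank but still passed. At 8 h, −3.30 became −0.79 (adjusted p = 0.0284), and at 16 h, −4.30 became −1.17 (adjusted p = 0.00111). Gja4 at 16 h against 8 h did not pass (−0.38, adjusted p = 0.355). Differences near 0 without a call also changed sign: Gja1 at 16 h against no hCG ran from −0.18 to 0.008 with 1 array left out, 0.008 without replicate 2 of the no hCG group. At 16 h against 8 h, Gpr3 ran from −0.21 to 0.14 (0.14 without replicate 1 of the 16 h group) and Pde10a from −0.073 to 0.047, above 0 without replicate 1 of the 8 h group (0.022) or of the 16 h group (0.047). Pde10a was 0.005 with median centring and 0.14 as the mean of its probe sets.

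At 16 h against 8 h, leaving out 1 array gave 1 to 3 members that fell. The lowest count, 1, came without replicate 2 of the 8 h group, where Nppc and Pde4d lost their calls. Over all probe sets, leaving out 1 array gave 2518 to 6340 calls at 16 h against 8 h (4922 with all arrays), with 2518 and 2819 without replicate 1 and 2 of the 8 h group and 2648 and 2784 without those of the 16 h group. It gave 6109 to 9450 at 8 h against no hCG (9167 with all), the lowest without replicate 2 of the 8 h group, and 7312 to 10345 at 16 h against no hCG (10072 with all). A group left with 1 array was assumed to vary like the others.

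Replicate numbers are not stated to pair arrays, and same-numbered arrays deviated together at r = 0.468, 0.001 and 0.135 for the 3 group pairs, so not every pair passed 0.1. With a replicate block the counts were 10117, 5812 and 11045 probe sets, and the member counts and calls did not change, with Gja4 at 8 h at −3.30 (adjusted p = 2.99e-06). Quantile normalization and median centring moved the median change of all genes by less than 0.1. Without detection calls, the low values of Nppc, Pde4d, Pde5a and Pde10a have an unknown distance from background.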
